A study of Mus musculus with 2 samples.

Results

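The Notch pathway genes described here are 10 genes, taken by mouse symbol from the 17215 genes listed in each of 2 RNA sequencing libraries. They are the receptor genes Notch1, Notch2 and Notch3, the ligand genes Jag1, Jag2 and Dll1, the DNA-binding factor gene Rbpj, and the target genes Hes1, Hey1 and Heyl. All 10 were listed in both libraries. The libraries came from MC3T3-E1, a clonal pre-osteoblast line from mouse calvaria. One was cultured with formaldehyde at 100 µM and the other at 300 µM, both in alpha-modified Eagle's medium with fetal bovine serum, penicillin and streptomycin. Formaldehyde forms crosslinks in DNA and between DNA and protein, and the series concerns its inhibition of osteoblast proliferation. Neither the time of exposure nor an untreated culture is given in the labels used here, and each dose is 1 library, so a difference below is one between 2 libraries and carries no p-value.

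Notch receptors are single-pass proteins that are cut by furin on their way to the cell surface and bind Jagged or Delta-like ligands on a neighbouring cell. Ligand pull exposes the receptor to an ADAM protease and then to gamma-secretase, and the freed intracellular domain enters the nucleus, where it joins RBPJ and a Mastermind-like protein and recruits the acetyltransferase p300. Without that domain RBPJ sits with corepressors on the same sites. The classical targets are genes of basic helix-loop-helix repressors of the HES and HEY families, and HES1 represses its own gene, so that its short-lived transcript can oscillate. In bone, Notch signalling is known for holding mesenchymal progenitors back from osteoblast differentiation, and JAG1 is a main ligand there.

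Promoter sequence is shown for the 3 receptor genes, which did not move alike between the doses, and for Rbpj, the window among the members that held the motif of the pathway's own factor. The sequences are from RefSeq on build GRCm38.p6, and each line gives the 250 bases before the annotated start, 5′ to 3′ on the gene's strand. Capitals mark matches to motifs of the RBPJ core (TGGGAA) and of sites bound by HES and HEY proteins: the class B E box (CACGTG), the class C site (CACGCG) and the N box (CACNAG), all searched on both strands. The coordinates are chr2:26503823-26504072, minus strand for Notch1, chr3:98013288-98013537, plus strand for Notch2, chr17:32166891-32167140, minus strand for Notch3, and chr5:53590096-53590345, plus strand for Rbpj.
Notch1: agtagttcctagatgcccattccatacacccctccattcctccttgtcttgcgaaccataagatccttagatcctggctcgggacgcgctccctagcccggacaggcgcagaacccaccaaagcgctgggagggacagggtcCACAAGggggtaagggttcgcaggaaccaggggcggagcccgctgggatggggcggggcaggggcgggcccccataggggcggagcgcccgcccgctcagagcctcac
Notch2: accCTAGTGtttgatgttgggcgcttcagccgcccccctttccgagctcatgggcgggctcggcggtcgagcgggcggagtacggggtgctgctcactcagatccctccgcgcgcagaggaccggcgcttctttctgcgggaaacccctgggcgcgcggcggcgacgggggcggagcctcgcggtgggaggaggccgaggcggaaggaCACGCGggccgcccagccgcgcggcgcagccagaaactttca
Notch3: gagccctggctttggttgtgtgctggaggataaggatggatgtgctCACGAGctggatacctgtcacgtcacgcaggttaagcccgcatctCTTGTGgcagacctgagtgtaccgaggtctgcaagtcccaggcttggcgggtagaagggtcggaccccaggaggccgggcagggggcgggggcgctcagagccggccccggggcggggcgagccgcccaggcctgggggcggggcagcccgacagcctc
Rbpj: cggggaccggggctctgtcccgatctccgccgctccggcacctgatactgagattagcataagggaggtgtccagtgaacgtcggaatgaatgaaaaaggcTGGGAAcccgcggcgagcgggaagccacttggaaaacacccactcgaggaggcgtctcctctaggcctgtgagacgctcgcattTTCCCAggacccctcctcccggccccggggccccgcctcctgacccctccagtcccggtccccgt

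The window of Rbpj held the RBPJ core on the plus strand, starting 149 bases before the start, and on the minus strand at 65 bases. Of the 32851 such windows in the RefSeq table, 21.6% held a TGGGAA match. A further Rbpj window, which overlaps this one and lies downstream, shared the minus-strand match. The 3 receptor windows each held an N box, Notch1 at 108 bases, Notch2 at 247 bases, and Notch3 at both 204 and 159 bases before the start. None of the windows of Jag1, Jag2, Dll1 and Rbpj held an N box, which was in 36.7% of all windows. A class C site stood in Notch2 at 42 bases and in Jag1 at 249 and 171 bases, and in the second of the Dll1 windows at 68 bases, against 7.62% of all windows. The class B E box, found in 6.02% of all windows, was in none of the member windows searched, and neither Jag2 nor the first Dll1 window held any of the 4 motifs. The table held 7 of the 10 members, and Hes1, Hey1 and Heyl were not among them. These matches are letters in a window, and binding was not measured.

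Values are FPKM, fragments per kilobase of transcript relative to all mapped fragments of the library, so levels can be compared between genes per length. The difference between doses is given as the log2 ratio of FPKM + 1, at 300 µM over 100 µM, and was taken for genes whose mean over both libraries reached 1 FPKM. Genes at or beyond 2-fold on that scale were counted as higher or lower. Folds given with intervals are ratios of FPKM without the added 1. They are therefore larger than the fold that the uncentred log2 ratio beside them stands for. Reads per gene were estimated from the FPKM, the transcript length and a depth of about 18500000 fragments at 100 µM and 19400000 at 300 µM. The 95% intervals given with levels and folds are exact Poisson and conditional binomial intervals on those reads. They cover counting error only, not the spread between cultures, and reads without molecular identifiers do not count independent molecules.

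Of the 10 members, 6 passed the level filter, and of these 1 was at least 2-fold higher at 300 µM, 3 were at least 2-fold lower and 2 lay between. Of all 10123 genes compared, 6.09% were higher and 29.8% lower, so the count of lower members is to be read against a large share of lower genes. The median log2 ratio of the 6 members was -0.91 and that of all genes compared was -0.30. Because the median gene lay below 0, each member's ratio is also given after centring on it. The counts of higher and lower members depended on scale and threshold. They were 1 and 2 after centring (14.5% and 22.3% of all genes), 0 and 4 with equal summed FPKM (2.16% and 38.0%), 0 and 2 with the trend in transcript length and GC content removed (7.00% and 23.1%), and 0 and 2 at 3-fold (1.22% and 16.3%). The members not compared were Jag2, Dll1, Hey1 and Heyl, which were at or under 0.24 FPKM in both libraries.

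Notch1, a receptor widely expressed in mesenchymal cells, stood at 11.2 FPKM (interval 10.7 to 11.7) with 100 µM and 2.14 FPKM (1.93 to 2.36) with 300 µM. The level at 300 µM was 5.22-fold lower (interval 4.68 to 5.83). The log2 ratio of FPKM + 1 was -1.95, or -1.65 after centring. Notch2, the receptor mutated in a human syndrome of bone loss, stood at 9.15 FPKM (8.73 to 9.58) and 1.52 FPKM (1.36 to 1.70). It was 6.02-fold lower (5.33 to 6.80), with a log2 ratio of FPKM + 1 of -2.01, or -1.71 after centring. Both receptors were thus lower at the higher dose by similar factors, and the fold intervals of the pair overlap. In bulk RNA such as this, fewer cells of a type and less RNA per cell cannot be told apart.

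Notch3, a receptor best known from vascular smooth muscle, did not share that difference. It stood at 1.23 FPKM (1.06 to 1.42) with 100 µM and 1.29 FPKM (1.12 to 1.48) with 300 µM, on about 182 and 201 reads. The ratio of FPKM was 1.05, with an interval of 0.857 to 1.29 that includes equal levels. Its log2 ratio of 0.04 was 0.34 after centring and -0.16 with both libraries scaled to equal summed FPKM, so its sign depends on the scale. Notch4, an endothelial receptor of the wider pathway list, was at 0.17 and 0.08 FPKM.

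The makeup of the receptor pool therefore differed between the libraries. Summed over the 4 receptor genes, the level was 21.7 FPKM with 100 µM and 5.03 FPKM with 300 µM. Notch1 made up 51.4% of that sum at 100 µM and 42.5% at 300 µM, and Notch2 42.1% and 30.2%. Notch3 made up 5.66% at 100 µM and 25.6% at 300 µM. The ratio of Notch1 to Notch3, which within a library does not depend on its scaling, was 9.08 and 1.66. The ratio of Notch1 to Notch2 was 1.22 and 1.41. At 300 µM the intervals of Notch2 and Notch3 overlapped, while at 100 µM Notch2 was well above Notch3.

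**Figure D1:**
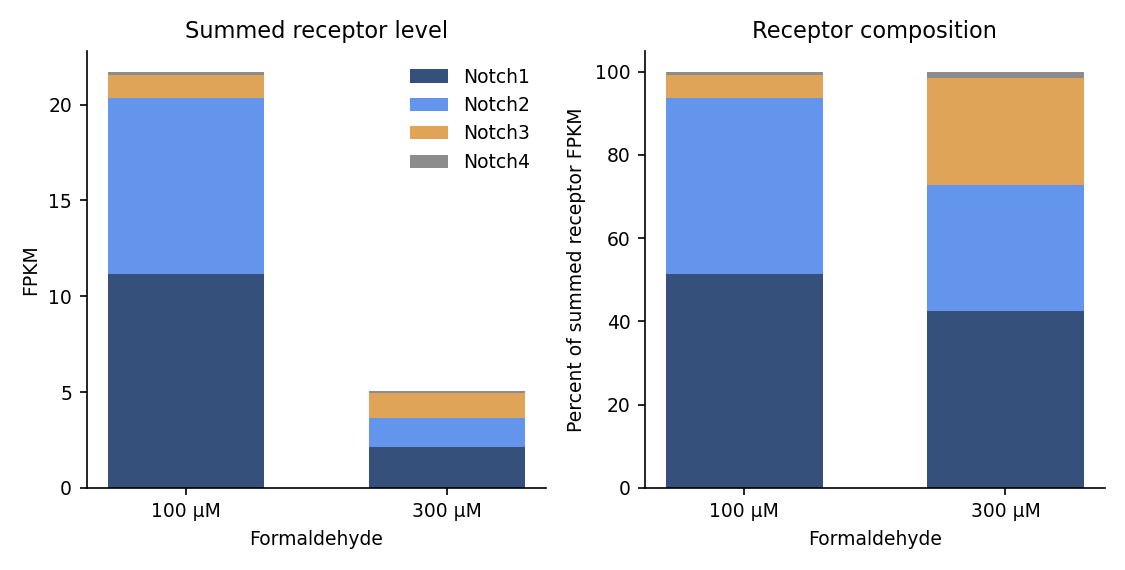
Stacked bars of the 4 Notch receptor genes in the library at each formaldehyde dose, as FPKM (left) and as percent of their sum (right), with no error drawn because each bar is 1 library. The sum is 21.7 FPKM with 100 µM and 5.03 FPKM with 300 µM, and the Notch3 share is 5.66% and 25.6%.

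Among the ligands, 1 gene accounted for nearly all of the level. Jag1, which encodes Jagged-1, stood at 12.9 FPKM (12.2 to 13.6) with 100 µM and 5.39 FPKM (4.96 to 5.85) with 300 µM. It was 2.39-fold lower (2.17 to 2.64), with a log2 ratio of FPKM + 1 of -1.12, and -0.82 after centring, where it was within 2-fold. Of the summed FPKM of Jag1, Jag2, Dll1, Dll3 and Dll4, Jag1 made up 97.4% at 100 µM and 96.1% at 300 µM. The ratio of Jag1 to Notch1 was 1.15 at 100 µM and 2.52 at 300 µM, since the receptor was lower by the larger factor.

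Dll1, which encodes the ligand Delta-like 1, was listed at 0.24 FPKM with 100 µM and 0.09 FPKM with 300 µM. These values correspond to about 16 and 6 reads, with intervals of 0.138 to 0.392 and 0.0317 to 0.188 FPKM. The level was 2.67-fold lower at 300 µM on the scale as deposited, with a wide interval of 1.04 to 8.73 that lies just above equal levels. The lower end is nearer to equal levels than the median gene (log2 ratio -0.30), so that placing depends on the scale. The other Jagged ligand gene, Jag2, was at 0.01 FPKM in both libraries, about 1 read in each, so no fold is given. Dll4, the endothelial ligand, was at 0.02 FPKM and listed at 0. Thus Dll1 and Jag2 were both more than an order of magnitude under Jag1 per length in each library.

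Rbpj, the factor through which all 4 receptors act on DNA, stood at 19.4 FPKM (18.6 to 20.3) with 100 µM and 11.6 FPKM (11.0 to 12.3) with 300 µM. It was 1.67-fold lower (1.55 to 1.79), with a log2 ratio of FPKM + 1 of -0.69, or -0.39 after centring. The log2 ratio of Rbpj was -1.03 with equal summed FPKM, just beyond 2-fold, and -0.10 with the trend in transcript length and GC content removed. In the transcript used for its length, 23.8% of the 50-base words also occur in transcripts of other genes, so its level depends in part on how reads were divided among copies. For the other 9 members that share was at most 3.86%, in Notch2. The ratio of Rbpj to Notch1 was 1.74 at 100 µM and 5.44 at 300 µM.

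Hes1, the repressor gene used most often as a readout of the pathway, was the member that was higher at 300 µM. It stood at 15.1 FPKM (13.7 to 16.6) with 100 µM and 39.8 FPKM (37.5 to 42.2) with 300 µM, on about 410 and 1133 reads. It was 2.64-fold higher (2.35 to 2.96), with a log2 ratio of FPKM + 1 of 1.34, or 1.64 after centring. That ratio lay at percentile 97.8 of all genes compared. With equal summed FPKM the log2 ratio was 0.98 and with the trend in transcript length and GC content removed 0.99, both just within 2-fold. Hes1 per summed receptor FPKM was 0.695 at 100 µM and 7.91 at 300 µM, and the ratio of Hes1 to Rbpj was 0.777 and 3.42.

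The remaining targets were at or near the detection limit. Hey1 and Heyl, HEY-family repressor genes, were both listed at 0 at 100 µM, and at 0.05 and 0.03 FPKM at 300 µM. About 2 and 3 reads underlie the values at 300 µM. The Poisson interval of a count of 0 at 100 µM reaches 0.0823 FPKM for Hey1 and 0.0439 FPKM for Heyl. A difference between doses was thus not detectable at this depth. Gapdh, a glycolytic gene that every cell uses, was at 2531 and 4076 FPKM. Of the wider target list of 11 genes, only Hes1 and Hes6 passed the level filter. Hes6, which encodes a HES protein known to oppose HES1, stood at 6.98 and 10.9 FPKM (log2 ratio 0.58). Hes5 was listed at 0 in both libraries, and Nrarp, a feedback inhibitor and direct Notch target, at 0.06 FPKM and 0.

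**Figure D2:**
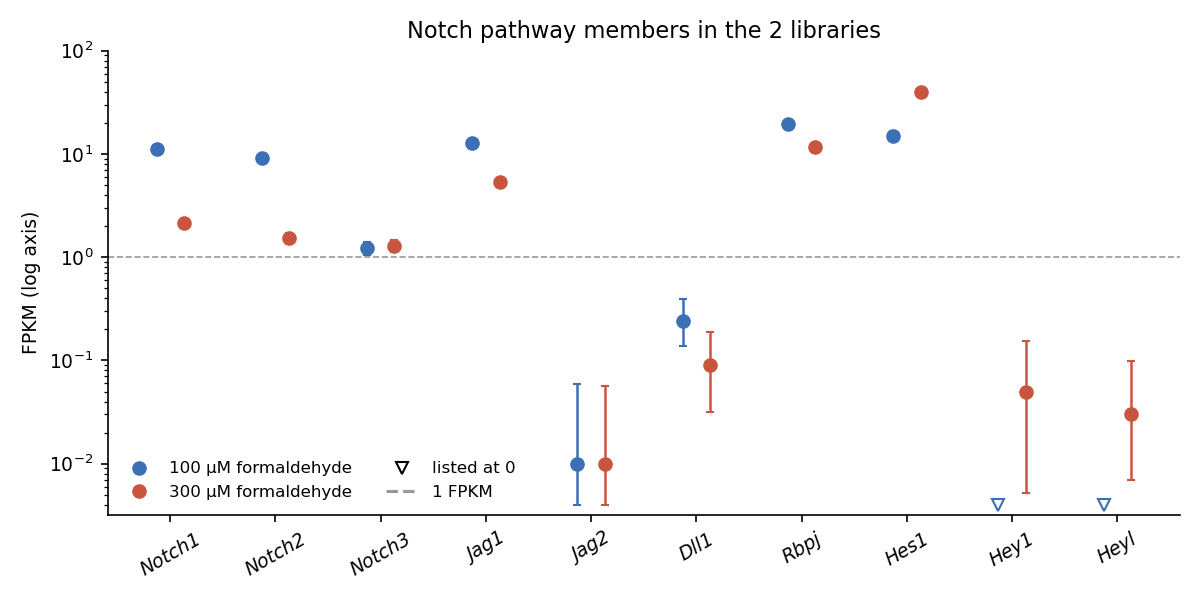
FPKM of the 10 members on a log axis in the library at 100 µM (blue) and 300 µM (red), with 95% exact Poisson intervals on estimated reads (cut off at the lower axis end for Jag2), open triangles for genes listed at 0 and a dashed line at 1 FPKM. Notch1, Notch2, Jag1 and Rbpj are lower at 300 µM, Hes1 is higher, Notch3 is at 1.23 and 1.29 FPKM, and the other 4 members stay at or under 0.24 FPKM.

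The order of the levels changed between the libraries. At 100 µM it ran Rbpj, Hes1, Jag1, Notch1, Notch2, Notch3, Dll1, Jag2, with Hey1 and Heyl at 0. The counting intervals of neighbours among the first 6 did not overlap there, although those of Hes1 and Jag1 nearly touched. At 300 µM Hes1 came first and was followed by Rbpj, Jag1, Notch1, Notch2 and Notch3. Hes1 moved from percentile 73.7 to percentile 89.0 of all listed genes, while Notch1 moved from 68.1 to 54.0 and Notch2 from 64.6 to 49.8. Notch3 moved from percentile 42.1 to 48.1.

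The members that were lower have long transcripts and Hes1 has a short one, and length moved with the ratio across all genes. Notch1, Notch2 and Notch3 have transcripts of 9488, 10500 and 8016 bases in GENCODE M21, with 33 or 34 exons. Jag1 has 5612 bases, Rbpj 5485 and Hes1 1468. The median receptor ratio of -1.95 minus the ratio of Hes1, the sole target compared, was -3.30 on the log2 scale. Over the 10093 compared genes with a known length, Spearman's rho of the ratio with length was -0.41, and over the 53 compared pathway genes it was -0.57. These are descriptions across genes of the same 2 libraries, and genes are not replicates.

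In 10 equal-sized bins of transcript length, the median log2 ratio ran from 0.62 in the shortest to -1.05 in the longest. In the longest bin, which starts at 6328 bases and holds the 3 receptor genes, 52.6% of 1010 genes were at least 2-fold lower and 1.58% higher. Notch1 and Notch2 had differences of -0.91 and -0.96 from that bin's median on the log2 scale, at percentiles 18.6 and 16.5 of the bin. Notch3 lay 1.08 above that median, at percentile 84.2. Its mean of 1.26 FPKM was just past the filter, and it drops out at a mean of at least 5 FPKM. From its level at 100 µM, the filter and the added 1 left no room for a 2-fold lower call. A place above that median was therefore fixed in advance for Notch3, unlike for Notch1 and Notch2. Jag1 and Rbpj had differences of -0.21 and 0.21 from the median of their bin (-0.91), at percentiles 43.0 and 57.5. Hes1 lay 1.10 above the median of the second bin (0.25), at percentile 96.4. With the trend removed, the receptor median minus the Hes1 ratio was -2.18, and Notch1 and Notch2 had log2 ratios of -1.18 and -1.20, still beyond 2-fold, whereas Jag1 had -0.60. The part of transcript length in these differences was not tested beyond this.

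**Figure D3:**
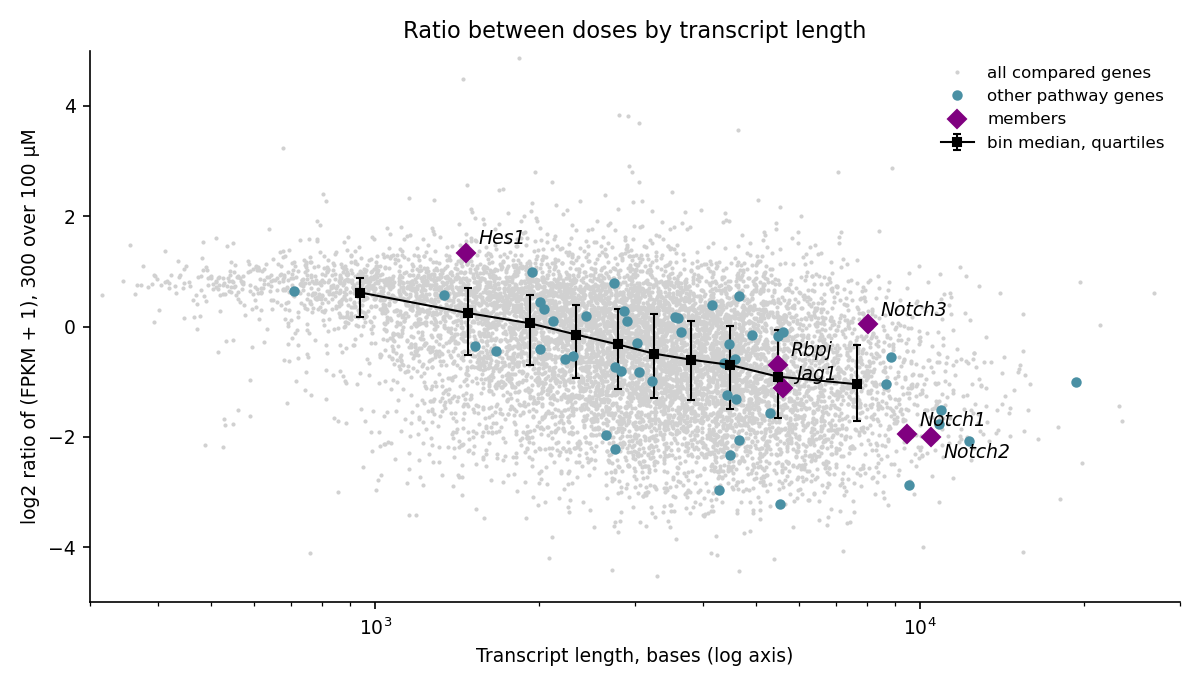
Log2 ratio of FPKM + 1 (300 over 100 µM) against transcript length on a log axis for the compared genes (grey), other pathway genes (teal) and the 6 compared members (purple), with the median and quartiles of 10 length bins in black; 6 genes outside the axes are not drawn. The bin medians run from 0.62 to -1.05, Hes1 and Notch3 lie above their bins' medians and Notch1 and Notch2 below theirs. Notch3, just past the level filter, could not have lain below its bin's median.

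The wider pathway was read from a list of 77 genes, the members included, of which 75 were listed and 53 compared. Of these 53, 1 was at least 2-fold higher (Hes1) and 18 were lower, to be set beside 6.09% and 29.8% of all genes compared. After centring 3 were higher and 14 lower (14.5% and 22.3% of all genes), and with equal summed FPKM 0 and 23 (2.16% and 38.0%). With the trend in transcript length and GC content removed, 1 was higher and 10 of 53 were lower (7.00% and 23.1% of all genes). Without the members, on the scale as deposited, it was 0 of 47 higher and 15 lower, beside the same 6.09% and 29.8% over all genes. Their median log2 ratio was -0.54. By length, 0 of the 10 compared pathway genes in the 3 shortest bins were lower, against 395 of all 3028 genes there. Of the 27 in the 3 longest bins 16 were lower, against 1406 of all 3028.

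Of 9 compared genes of the proteases that act on the receptors, 2 were lower, 0 were higher and 7 were within 2-fold. These 9 include 6 subunit genes of gamma-secretase, and the share of lower genes was not above the 29.8% of all genes compared. Furin, which makes the first cut of the receptor, stood at 34.0 FPKM with 100 µM and 3.49 FPKM with 300 µM, a log2 ratio of -2.96. Adam10, the protease of the ligand-dependent cut, stood at 16.2 and 5.89 FPKM (-1.32), and its relative Adam17 at 11.0 and 8.63 FPKM (-0.32). Furin and Adam10 lay at percentiles 1.59 and 30.1 of their length bin. The 6 compared subunit genes of gamma-secretase were all within 2-fold, with a median log2 ratio of 0.20. Among 5 compared glycosyltransferase genes, which tune receptor and ligand binding, 1 was lower, beside 29.8% of all genes compared. It was Eogt (13.7 and 5.18 FPKM, -1.25), at percentile 31.6 of its length bin, and the other 4 were within 2-fold.

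Among the 7 compared nuclear activators, 3 coactivator genes were at least 2-fold lower and 0 genes were higher, beside 29.8% lower and 6.09% higher of all genes compared. Maml1, a Mastermind-like gene that bridges the intracellular domain and p300, stood at 20.5 FPKM with 100 µM and 1.31 FPKM with 300 µM, a log2 ratio of -3.22. Ep300, which encodes p300, stood at 11.6 and 0.72 FPKM (-2.87), and its relative Crebbp at 3.87 and 0.44 FPKM (-1.76). All 3 lie in the 3 longest length bins, where 1406 of all 3028 genes were lower. Maml1, Ep300 and Crebbp lay at percentiles 0.793, 2.87 and 24.0 of their length bins. The other 4, Rbpj among them on the scale as deposited, were within 2-fold.

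Of 14 compared corepressor genes, 4 were lower, 0 were higher and 10 were between, a share of lower genes close to the 29.8% of all genes compared. Spen, which encodes an RBPJ corepressor, stood at 3.78 FPKM with 100 µM and 0.14 FPKM with 300 µM (log2 ratio -2.07). Tle3, a Groucho family gene whose product binds HES proteins, stood at 16.1 and 3.13 FPKM (-2.05). Kdm5a, a histone demethylase gene, had -1.51. Spen, Tle3 and Kdm5a lay at percentiles 14.9, 12.8 and 31.8 of their length bins.

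Of 11 compared genes of ligand and receptor endocytosis and ubiquitylation, 5 were lower and 0 higher, beside the same shares of 29.8% and 6.09% over all genes. Fbxw7, the ubiquitin ligase gene whose product marks the intracellular domain for degradation, stood at 5.81 and 0.35 FPKM (-2.33). Numbl, a relative of the Notch inhibitor Numb, stood at 48.8 and 9.71 FPKM (-2.22), and Dtx2, a Deltex gene, at 12.1 and 2.38 FPKM (-1.96). Numbl and Dtx2 lay in the fifth length bin, at percentiles 5.25 and 8.61 of it. The other 2 lower genes were Itch (-1.57) and, at the 2-fold line, Aak1 (2.11 and 0.55 FPKM). Fbxw7, Itch and Aak1 lay at percentiles 7.83, 28.0 and 52.2 of their length bins. Dtx3, another Deltex gene, lay just inside the line in the other direction, at 13.8 and 28.3 FPKM (0.98 with the pseudocount).

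**Figure D4:**
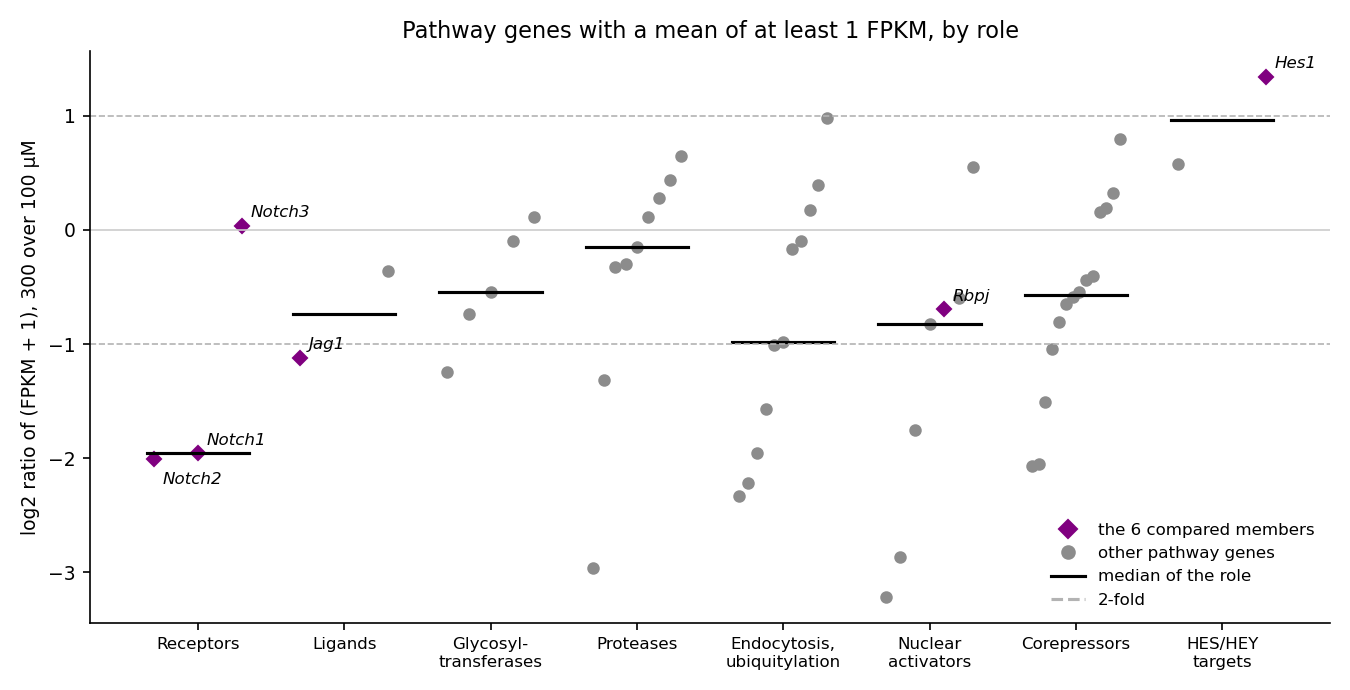
Log2 ratio of FPKM + 1 (300 over 100 µM) of the 53 compared pathway genes by role, with the 6 compared members as purple diamonds, medians as black bars and 2-fold as dashed lines. Maml1 (-3.22) and Furin (-2.96) are the lowest, and Hes1 (1.34) is the only gene above the upper line.

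The labelled cell type was checked against marker genes. Of 8 osteoblast markers, 6 were at or above 1 FPKM at 100 µM and 7 at 300 µM, with Runx2 at 7.99 and 3.60 FPKM. The step from 6 to 7 was Alpl, which lay at the cut with 0.98 and 1.06 FPKM. Ibsp was also low, at 1.83 and 1.77 FPKM, while Col1a2 was the highest, at 2336 and 2161 FPKM. Bglap, a marker of mature osteoblasts, was listed at 0 and at 0.49 FPKM. Endothelial markers, which bear on Notch4 and Dll4, summed to 0.16 and 0.10 FPKM over 6 genes, and Kdr and Tie1 were at 0 in both libraries. Smooth muscle markers, which bear on Notch3, summed to 797 and 1323 FPKM over 5 genes, mostly from Acta2. In both libraries 3 of the 5 were at or above 1 FPKM: Acta2, Smtn (75.3 and 51.2 FPKM) and Cnn1 (1.14 and 2.33 FPKM). Des, at 0.29 and 0.46 FPKM, and Myh11, at 0 and 0.02 FPKM, were under it. Of 5 chondrocyte markers 2 were above 1 FPKM, Col2a1 at 322 and 350 FPKM and Sox9 at 61.4 and 9.78 FPKM, while Acan and Matn1 were at 0 in both. The macrophage list summed to 3.06 and 1.23 FPKM, the adipocyte list to 0.15 and 0.57 FPKM and the keratinocyte list to 9.77 and 8.96 FPKM. The part of these marker levels in the results above was not tested.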

How the data were processed

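Messenger RNA was measured in 1 library per dose. The authors deposited 1 gene table per library, with FPKM values to 2 decimals (per the file headers). The submitters' processing notes list Bowtie2 and RSEM and no version. The genome build and annotation, not given in the sources used here, are unknown. An FPKM depends on the library's total and, in RSEM, on the division of reads among isoforms and near-identical copies.

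The members and gene lists were chosen with earlier results of these data known. Symbols came from NCBI gene numbers: 17179 from RefSeq genes of GRCm38 and 6 from GENCODE M21, with 30 rows unnamed. Length and GC content came from 1 GENCODE M21 transcript per gene, the longest with a RefSeq link, and may differ from the isoform expressed. Depth was read from steps of FPKM times length in low genes with 1 transcript: 59.7% of 186 values at 100 µM and 64.5% of 155 at 300 µM lay within 0.12 of a whole read. A shorter effective length would give up to 20600000 and 21100000 fragments.

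No test was possible with 1 library per dose. All members are named, with up to 3 genes per list and direction beyond 2-fold and 9 fixed genes; some genes taken by this rule or counted in a list are not reported here by name. Aak1, Acan, Acta2, Alpl, Bglap, Cnn1, Col1a2, Col2a1, Des, Dll3, Dtx3, Gapdh and Ibsp were named outside that rule, after their values were seen. The same holds for Itch, Kdr, Matn1, Myh11, Numb, Runx2, Smtn, Sox9 and Tie1. The comparison was checked on simulated libraries with known changes. Those were drawn from the levels at the lower dose with counting error only. They held no trend with transcript length and no difference in scale, so the check does not bear on either. The alternative settings changed the pseudocount (0.1 or 5), the filter (none, or 5 FPKM on average), the threshold (1.5-fold or 3-fold) or the scale (centring on the median gene, an unweighted TMM factor, equal summed FPKM, or removal of a trend with length and GC content). Software was Python 3.11.15, pandas 2.3.3, numpy 2.4.6, matplotlib 3.10.9 and scipy 1.17.1.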

Additional observations from a re-analysis of the deposited data

How the results depend on the processing

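No paired analysis was possible because each dose is 1 library. No member beyond 2-fold changed sign under any alternative. The members' counts (1 higher, 3 lower) differed by more than 1.5 times in the number higher, which was 0 at 3-fold, with equal summed FPKM and with the length and GC trend removed. The number of lower members ranged from 2 to 4.

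The members' median log2 ratio of -0.91 was -0.67 with a pseudocount of 5, -0.093 without the filter (10 members), -1.12 at a mean of at least 5 FPKM, -0.61 centred, -0.56 with the TMM factor, -1.23 with equal sums and -0.35 with the trend removed. The receptor median minus the target median of -3.30 was -3.72 and -2.27 with pseudocounts of 0.1 and 5, -2.02 without the filter, which adds Hey1 and Heyl near 0, and -2.18 with the trend removed.

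Higher pathway genes (1) were 2 with a pseudocount of 0.1, 4 at 1.5-fold, 0 at 3-fold, 3 centred, 4 with TMM and 0 with equal sums. Lower pathway genes (18) were 10 with a pseudocount of 5, 11 at 3-fold and 10 with the trend removed. Over all genes, the 616 higher became 258 with a pseudocount of 5, 1901 at 1.5-fold, 123 at 3-fold, 1472 centred, 1694 with TMM and 219 with equal sums. The 3020 lower became 1630 with a pseudocount of 5, 1973 at a mean of at least 5 FPKM and 1653 at 3-fold. The cause of these shifts was not tested apart from what each setting does by construction.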
